A study of Mus musculus with 6 samples.

Results

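Genes of the monocyte and macrophage lineage were followed mouse by mouse in I1DN leukemia cells from mice that received vehicle or AG636. The 10 genes were listed by name, namely *Lyz2*, *Cd68*, *Mpeg1*, *F13a1*, *Ly6c2*, *Ms4a6c*, *Adgre1*, *Csf1r*, *Cx3cr1* and *Ccr2*, and all 10 were found among the 54838 genes of the count table. All 10 held enough reads to be tested, out of 11092 genes tested in all. AG636 is an inhibitor of dihydroorotate dehydrogenase (DHODH), a mitochondrial enzyme of *de novo* pyrimidine synthesis. I1DN is a C57BL/6 acute myeloid leukemia (AML) with the genotype IDH1R132H; DNMT3AR882H; NrasG12D, made by putting all 3 mutant genes into fetal liver stem and progenitor cells, so vehicle and AG636 mice carried the same 3 drivers. The leukemia was passed into irradiated congenic Ptprca mice, whose own blood cells remain in the marrow and spleen beside the graft. The study states that the leukemia cells also carried a fluorescent reporter, and its methods do not say whether the sort for RNA used it. One group of 3 mice received vehicle and the other group of 3 mice received AG636 at 100 mg/kg by gavage b.i.d. The descriptions of the study differ on the length of treatment, given as 1 day or 4 days, and on the sort, given as cKit+CD11b- or cKit-high CD11b-low. The ages of the mice were not given in the sources used here.

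Monocytes arise in the bone marrow from myeloid progenitors under the transcription factors PU.1 and IRF8 and the growth factor receptor CSF1R. Classical monocytes carry Ly6C and the chemokine receptor CCR2, which guides them out of the marrow, and non-classical monocytes carry CX3CR1. Macrophages add the adhesion receptor F4/80, encoded by *Adgre1*, and a large lysosomal compartment. The cells of the sort were immature by cKit and low in CD11b, an integrin chain of mature myeloid cells, and the question of the comparison was how DHODH inhibition changes the transcripts of such LSC-enriched cells.

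Counts per mouse totalled 4634963 to 7906589, and the 10 most counted genes of each library took 7.26% to 8.39% of them. Principal component 1 of log2 CPM, with 58.6% of the variance, ran from -49.7 to -15.9 in vehicle mice and from 19.4 to 41.2 in AG636 mice, and AG636 replicate 2 stood apart on component 2 at 34.6 against values from -15.1 to 8.87 for the other mice. Over all genes tested 1146 rose and 1222 fell, together 21.3% of the genes, and 1483 rose and 913 fell with library size alone as the scaling.

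Of the 10 genes, 4 rose with AG636 and 0 fell, where 10.3% of all genes tested rose and 11.0% fell (edgeR quasi-likelihood test, adjusted p under 0.05). The 4 were *Lyz2*, *Cd68*, *Mpeg1* and *Ly6c2*, between 2.20-fold and 3.34-fold by the group means. The same 4 genes had higher normalized read counts (CPM, the count scaled to library size) in each AG636 mouse than in any vehicle mouse, as did 20.5% of all genes tested, and 0 of the 10 were lower in each AG636 mouse, as were 20.6% of all genes. The fitted log2 fold change was above 0 for 9 of the 10 genes and for 52.3% of all genes, and its median was 0.88 over the 10 genes and 0.03 over all genes tested. At an unadjusted p under 0.05, 5 of the 10 genes were higher and 0 lower in edgeR, against 18.7% and 18.4% of all genes tested. DESeq2 called 5 of the 10 higher and 0 lower, against 10.5% and 12.0% of all genes, and limma-voom called 3 higher and 0 lower, against 10.3% and 11.1%. The receptors for CSF1, fractalkine and CCL2 were not among the 4. In bulk samples, more cells of a type and more RNA per cell cannot be told apart. The number called higher was 2 without AG636 replicate 3, and it was also 2 without vehicle replicate 2. Over all genes, these fits called 399 and 500 genes higher, against 1146 with all mice.

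**Figure D1:**
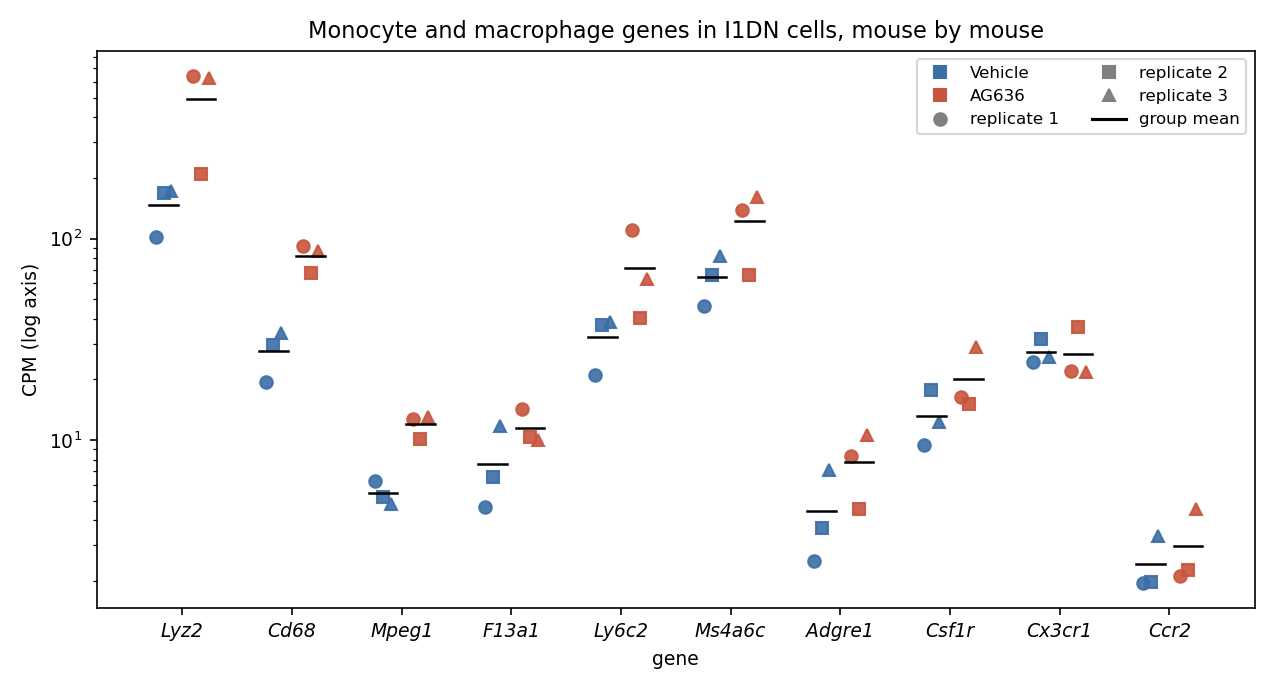
Normalized read count (CPM, log axis) of the 10 genes in each of 6 mice, with symbols for the replicate, colours for the group and a black line at the group mean. The AG636 mice lie above all vehicle mice for *Lyz2*, *Cd68*, *Mpeg1* and *Ly6c2*, while the groups overlap for *Cx3cr1*.

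*Lyz2*, *Cd68* and *Mpeg1*, genes of the lysosome and of bacterial killing, had log2 fold changes of 1.74, 1.57 and 1.14. That of *Mpeg1* was nearly level with the surface gene *Ly6c2*, at 1.13. *Lyz2* encodes lysozyme M, an enzyme that cuts bacterial cell walls and is also made by granulocytes, and lies on chromosome 10 from 117277331 to 117282321 of mm10. It was the most abundant of the 10 genes in these 3′-end counts, which do not scale with gene length. Vehicle replicates 1, 2 and 3 had 102, 167 and 173 CPM of *Lyz2*, and AG636 replicates 1, 2 and 3 had 640, 208 and 628 CPM. Replicates 1 and 3 of the AG636 group stood at 4.34 and 4.26 times the vehicle mean and replicate 2 at 1.41 times. The groups did not overlap, although AG636 replicate 2 lay closer to the vehicle mice than to its own group. *Lyz2* rose from 147 ± 39.3 to 492 ± 246 CPM (SD, n = 3 mice each), by 1.74 on the log2 scale (standard error 0.37, edgeR quasi-likelihood adjusted p = 0.0124), and the call was kept in 6 of 6 fits that each left out 1 mouse.

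*Cd68* encodes macrosialin, a heavily glycosylated lysosomal membrane protein of phagocytes, on chromosome 11 from 69664213 to 69666153. The vehicle mice had 19.4, 29.7 and 33.9 CPM and the AG636 mice 91.5, 67.2 and 87.0 CPM. Each AG636 mouse was above every vehicle mouse, and the AG636 mice differed less from each other than for *Lyz2*. *Cd68* rose 2.96-fold, from 27.7 ± 7.42 to 81.9 ± 12.9 CPM (SD, n = 3), and its adjusted p was the lowest of the 10 genes, at 1.57 on the log2 scale (standard error 0.21, edgeR quasi-likelihood adjusted p = 0.00298). Among the fits that left out 1 mouse, its highest adjusted p was 0.0177 (edgeR, without vehicle replicate 2).

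*Mpeg1* encodes perforin-2, a pore-forming protein that acts on engulfed bacteria, on chromosome 19 from 12460779 to 12465284. Its levels were 6.24, 5.23 and 4.81 CPM with vehicle and 12.7, 10.1 and 13 CPM with AG636. The groups were apart and narrow on each side, with 5.43 ± 0.737 CPM and 12.0 ± 1.61 CPM (SD, n = 3). *Mpeg1* rose by 1.14 on the log2 scale (standard error 0.24, edgeR quasi-likelihood adjusted p = 0.0128). It was called in 4 of 6 fits that left out 1 mouse, the exceptions being those without AG636 replicate 3 and without vehicle replicate 2.

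*F13a1* encodes the A subunit of coagulation factor XIII, an enzyme stored by monocytes and platelets, on chromosome 13 from 36867178 to 37050244. Vehicle mice had 4.64, 6.54 and 11.7 CPM and AG636 mice had 14.2, 10.3 and 10.005 CPM. Vehicle replicate 3 lay above 2 of the AG636 mice, so the groups overlapped. The log2 fold change was 0.61 with a 95% interval from -0.14 to 1.36 (edgeR quasi-likelihood adjusted p = 0.219).

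Of the surface proteins, *Ly6c2* passed the test and *Ms4a6c* and *Adgre1* did not. *Ly6c2* encodes the Ly6C antigen used to sort classical monocytes, on chromosome 15 from 75108158 to 75111970. The levels in vehicle mice were 21, 37.1 and 38.7 CPM, and those in AG636 mice were 109.8, 40.2 and 63.0 CPM. AG636 replicate 1 was the highest and AG636 replicate 2 was just above vehicle replicate 3. *Ly6c2* rose by 1.13 on the log2 scale (standard error 0.34, edgeR quasi-likelihood adjusted p = 0.0408), from 32.3 ± 9.77 to 71.0 ± 35.5 CPM (SD, n = 3). This call was kept in 1 of 6 fits that left out 1 mouse, the fit without AG636 replicate 2, and its edgeR adjusted p reached 0.151 without AG636 replicate 1. The limma-voom adjusted p was 0.0555 and that of edgeR with a replicate block was 0.0922.

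*Ms4a6c*, a membrane-spanning 4A family gene of myeloid cells on chromosome 19 from 11469366 to 11482192, had 46.4, 65.9 and 81.9 CPM with vehicle and 138.9, 65.6 and 160.5 CPM with AG636. AG636 replicates 1 and 3 were above all vehicle mice and replicate 2 fell between them. Its log2 fold change was 0.91 (standard error 0.30, edgeR quasi-likelihood adjusted p = 0.0566), and it passed in edgeR without AG636 replicate 2 (log2 fold change 1.21, adjusted p = 0.00670) and in DESeq2 with all mice (adjusted p = 0.0119). *Adgre1*, the gene of F4/80 on chromosome 17 from 57358691 to 57483527, had 2.496, 3.66 and 7.10 CPM with vehicle and 8.28, 4.54 and 10.6 CPM with AG636. These levels rest on 14 to 56 counts per mouse, and the groups overlapped through AG636 replicate 2. Its log2 fold change of 0.85 had a 95% interval from -0.11 to 1.80 (edgeR quasi-likelihood adjusted p = 0.181).

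None of the 3 receptor genes passed the test. *Csf1r*, the receptor for the macrophage growth factors CSF1 and IL-34, lies on chromosome 18 from 61105572 to 61132149. It had 9.45, 17.8 and 12.3 CPM with vehicle and 16.4, 15.1 and 28.9 CPM with AG636. AG636 replicate 3 was above the other 5 mice, and the remaining levels overlapped. The log2 fold change was 0.60 with a 95% interval from -0.09 to 1.28 (edgeR quasi-likelihood adjusted p = 0.188). The last 300 bases of the longest coding *Csf1r* transcript lie opposite an exon of *Hmgxb3*, which had 886 counts in all against 551 for *Csf1r*. Whether reads were counted by strand was not given in the sources used here, and without strand the reads of this pair cannot be told apart.

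*Cx3cr1*, the fractalkine receptor, on chromosome 9 from 119901616 to 120069879, had 24.2, 31.7 and 25.7 CPM with vehicle and 22.1, 36.3 and 21.7 CPM with AG636. AG636 mice made up both the highest level and the 2 lowest. Its log2 fold change of -0.03 had a 95% interval from -0.54 to 0.48 (edgeR quasi-likelihood adjusted p = 0.933). This interval leaves out the 2.20-fold estimate for *Ly6c2*, but the interval of *Ly6c2*, from 0.38 to 1.89, overlaps it. A difference between these genes was not tested. *Ccr2*, the receptor for the monocyte attractant CCL2, on chromosome 9 from 124101950 to 124113557, was the lowest of the 10 genes. It had 1.96, 1.96 and 3.34 CPM with vehicle and 2.12, 2.27 and 4.53 CPM with AG636, from 10 to 24 counts per mouse. At this depth the interval of its log2 fold change ran from -0.63 to 1.30 around 0.33 (edgeR quasi-likelihood adjusted p = 0.611).

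**Figure D2:**
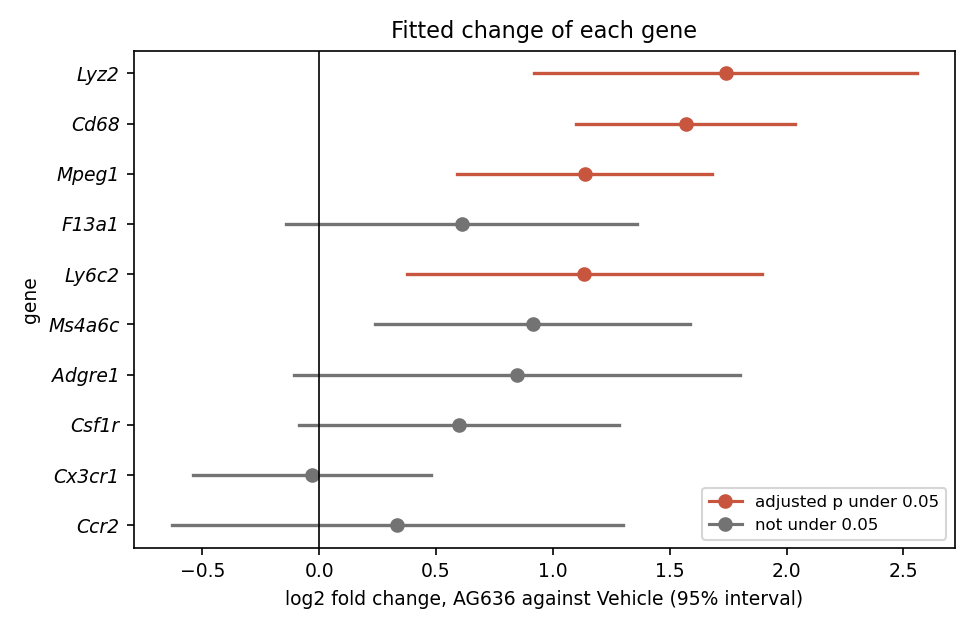
Fitted log2 fold change of each gene (AG636 against vehicle) with its 95% interval, coloured where the adjusted p was under 0.05. The intervals of *Lyz2*, *Cd68*, *Mpeg1* and *Ly6c2* lie above 0 with estimates from 1.13 to 1.74, and that of *Cx3cr1* is centred at -0.03.

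The mice did not share the increase evenly. AG636 replicate 2 had the lowest level of its group for 7 of the 10 genes, and it exceeded the highest vehicle mouse for 5 of them, against 7 for AG636 replicate 1 and 8 for AG636 replicate 3. Vehicle replicate 1 was the lowest vehicle mouse for 9 of the 10 genes, all but *Mpeg1*. Ratios of counts within a library do not depend on scaling. *Cx3cr1* was used as the denominator, picked after the values were seen because its group means were nearly level. AG636 replicate 2 had the highest *Cx3cr1* of all mice, at 36.3 CPM, which lowers its ratios. The ratio of *Lyz2* to *Cx3cr1* counts was 4.21, 5.29 and 6.72 in vehicle mice and 29.0, 5.74 and 28.9 in AG636 mice, so AG636 replicate 2 lay inside the vehicle range. The ratio of *Cd68* to *Cx3cr1* was 0.801, 0.938 and 1.32 against 4.14, 1.85 and 4.01, with no overlap. Of 9 such ratios, those of *Cd68* and *Mpeg1* were higher in each AG636 mouse than in any vehicle mouse, as was the ratio to *Cx3cr1* of 10.1% of all other genes tested (p = 0.1 in a two-sided exact permutation test, and no lower p is possible with 3 mice a group).

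**Figure D3:**
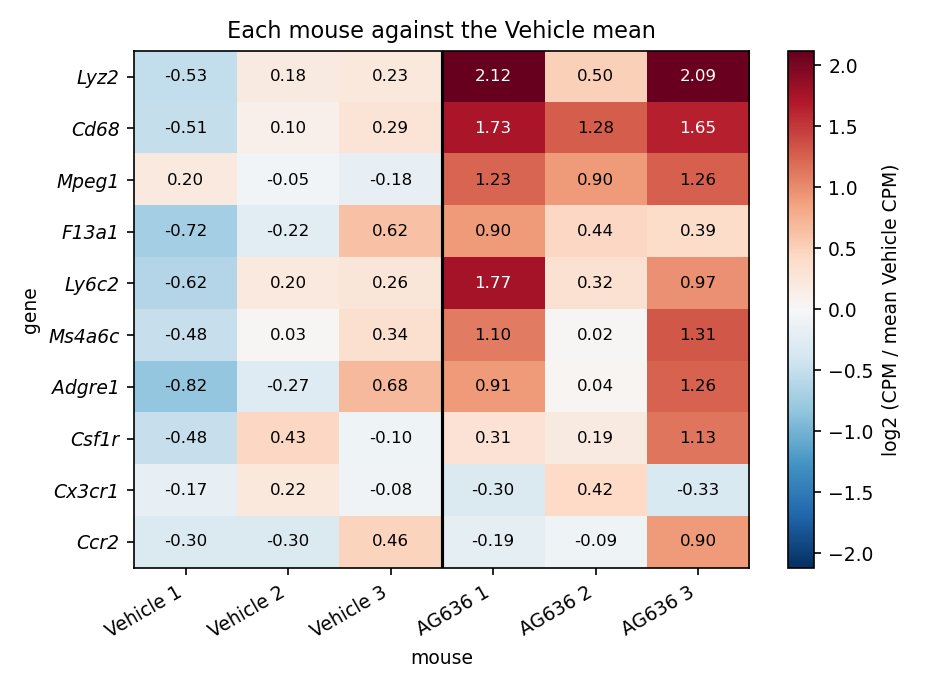
Level of each gene in each mouse as log2 of its CPM over the mean vehicle CPM, from blue (lower) to red (higher). AG636 replicates 1 and 3 reach 2.12 and 2.09 for *Lyz2*, and AG636 replicate 2 reaches 0.50 for *Lyz2* and 1.28 for *Cd68*.

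Sequences upstream of the 4 genes that rose are shown because these genes passed the same threshold. The windows run from 250 to 51 bases before the start site in RefSeq's annotation of GRCm38.p6 (mm10). They read 5′ to 3′ on the strand of the gene. Windows were used for 8 of the 10 genes. *Csf1r* was left out because windows on its chromosome, 18, were not used for the 10 genes, and none was found for *Adgre1*. The shares over all windows were not limited by chromosome. Capitals mark GAGGAA, the core letters of a site for PU.1, or TGTGGT, the core of a RUNX site, on either strand (ACCACA is TGTGGT on the opposite strand).
*Lyz2*, chr10:117282323-117282522, minus strand: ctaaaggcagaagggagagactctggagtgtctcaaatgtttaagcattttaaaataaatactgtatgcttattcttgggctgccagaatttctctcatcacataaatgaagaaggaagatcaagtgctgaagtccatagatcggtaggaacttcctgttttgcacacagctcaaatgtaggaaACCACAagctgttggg
*Cd68*, chr11:69666221-69666420, minus strand: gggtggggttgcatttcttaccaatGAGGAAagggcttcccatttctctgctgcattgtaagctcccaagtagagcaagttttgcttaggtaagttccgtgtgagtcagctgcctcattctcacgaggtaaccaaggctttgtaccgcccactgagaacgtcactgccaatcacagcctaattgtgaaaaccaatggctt
*Ly6c2*, chr15:75112022-75112221, minus strand: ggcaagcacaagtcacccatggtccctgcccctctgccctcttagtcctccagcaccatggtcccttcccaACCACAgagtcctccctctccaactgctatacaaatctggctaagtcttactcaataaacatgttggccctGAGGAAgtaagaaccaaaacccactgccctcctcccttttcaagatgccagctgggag
*Mpeg1*, chr19:12460520-12460719, plus strand: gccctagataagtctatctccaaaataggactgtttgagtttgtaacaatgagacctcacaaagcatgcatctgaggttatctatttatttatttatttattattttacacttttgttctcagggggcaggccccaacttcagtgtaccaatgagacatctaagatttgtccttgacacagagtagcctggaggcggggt
GAGGAA was present in 3 of the 8 windows (*Cd68*, *Ly6c2* and *F13a1*) and in 18.8% of all 32851 windows of the same length. TGTGGT was present in 2 of the 8 (*Ly6c2* and *Lyz2*) and in 11.6% of all windows. TTGCNNAA, the letters of a C/EBP site, was in 0 of the 8 and in 8.11% of all windows. The matches are letters in these windows and not measured binding.

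Few reads came from the ligands of these receptors, with at most 31 counts in a mouse for any of 6 ligands. *Ccl2*, the CCR2 ligand, was the 1 ligand of 6 with enough reads to be tested. It had 5, 1 and 10 counts with vehicle and 9, 25 and 31 with AG636, and the groups overlapped. Its log2 fold change was 2.19 (standard error 0.69, edgeR quasi-likelihood adjusted p = 0.0485), and the call was kept in 2 of 6 fits without 1 mouse. *Csf1*, the main ligand of CSF1R, had 4 to 9 counts per mouse, *Ccl7* had 2 to 29, *Cx3cl1* had 1 to 4, *Ccl12* had 0 to 6 and *Il34* had 0 or 1.

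Of 15 relatives of the 10 genes by sequence or family, 10 were tested and 4 rose, *Ccr1*, *Ms4a6b*, *Ms4a4c* and *Lamp2*, while 0 fell. *Ccr1*, a receptor for inflammatory chemokines, rose from 2.496, 5.23 and 9.82 CPM to 18.9, 32.8 and 17.6 CPM (log2 fold change 2.002, standard error 0.42, edgeR quasi-likelihood adjusted p = 0.0120). Unlike *Lyz2*, *Ccr1* was highest in AG636 replicate 2. *Ms4a6b* and *Ms4a4c*, neighbours of *Ms4a6c* on chromosome 19, had log2 fold changes of 1.35 and 1.75 (edgeR quasi-likelihood adjusted p = 0.00592 and 0.0138). *Lamp2*, a lysosomal membrane protein related to CD68, rose 1.47-fold (edgeR quasi-likelihood adjusted p = 0.0127) and *Lamp1*, its partner, had 320 and 397 CPM (adjusted p = 0.0558 in the same edgeR test). Of the other tested relatives, *Ms4a6d*, *Ms4a3*, *Adgre4* and *Adgre5* had log2 fold changes from 0.25 to 1.04 and did not pass. Exons of *Adgre5* (2010 counts in all) overlap *Ddx39* on the opposite strand (7229 counts), with the same limit as for *Csf1r*. Without vehicle replicate 2, *Ccr1* and *Ms4a4c* had edgeR adjusted p of 0.0531 and 0.0616, and without AG636 replicate 1 *Lamp2* had 0.0522.

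The near-identical copies *Lyz1* and *Ly6c1* held at most 2 counts in any mouse, *Ms4a7* 0 with vehicle and 2 or 3 with AG636, and *Ms4a4a* and *F13b* 0 in all 6 mice. Of the 50-base stretches in the last 300 bases of the transcripts, 21.9% of those of *Lyz2* also occur in *Lyz1* and 29.9% of those of *Ly6c2* also occur in *Ly6c1*. For *Ms4a6c* the share also found in *Ms4a6b* was 9.16%, so a part of the reads of these genes could be split or dropped by the counting. All such stretches of *Ms4a6c* also lie opposite an exon of *BE692007*, which had 3 counts in all against 2978 for *Ms4a6c*. For *Cd68*, *Mpeg1*, *F13a1*, *Adgre1*, *Cx3cr1* and *Ccr2* the share found in another gene was 0%.

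Of 14 transcription factors of monocyte development, 11 were tested and 3 rose with AG636, *Irf5*, *Zeb2* and *Maf*, while 0 fell. *Irf5*, an interferon regulatory factor of inflammatory macrophages, had 9.09, 8.11 and 10.7 CPM with vehicle and 16.4, 17.3 and 21 CPM with AG636 (log2 fold change 0.98, standard error 0.21, edgeR quasi-likelihood adjusted p = 0.0132). Exons of *Irf5*, with 436 counts in all, overlap *Tnpo3* on the opposite strand, which had 4881 counts. Without strand the reads of this pair cannot be told apart. *Maf*, a factor of mature macrophages, rose from 3.46 ± 0.862 to 9.67 ± 3.63 CPM (edgeR quasi-likelihood adjusted p = 0.0176). *Zeb2*, a repressor needed for monocyte fate, rose 1.65-fold (edgeR quasi-likelihood adjusted p = 0.0348) but in 0 of the 6 fits that left out 1 mouse. *Irf5* and *Maf* were called in 4 of these 6 fits each.

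The lineage regulators themselves did not pass in edgeR. *Spi1*, the gene of PU.1, had 57.9, 119.9 and 116.8 CPM with vehicle and 162, 135 and 171 CPM with AG636, with no overlap and an edgeR quasi-likelihood adjusted p of 0.0714. *Irf8* had 12.3 ± 2.78 and 16.1 ± 6.77 CPM (SD, n = 3), with AG636 replicate 1 the lowest of all mice at 8.28 CPM. *Cebpa*, *Cebpb*, *Egr1*, *Klf2*, *Gfi1* and *Runx1* had log2 fold changes from 0.15 to 0.89 with edgeR adjusted p from 0.0538 to 0.647. Exons of *Cebpb* (727 counts in all) overlap *Tmem189* on the opposite strand (1152 counts), with the same strand limit. In DESeq2 *Spi1* and *Runx1* passed as higher (adjusted p = 0.0320 and 0.0190), and in limma-voom neither did (adjusted p = 0.0582 and 0.0767). *Klf4* and *Nr4a1* were too low to be tested, with at most 14 counts in a mouse.

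A wider list of 28 classical monocyte genes had 20 genes tested, of which 13 rose and 0 fell, with a median log2 fold change of 0.87. *Chil3*, a chitinase-like protein of maturing myeloid cells, rose 3.57-fold from 12.8, 22.5 and 22.8 CPM to 76.9, 79.2 and 51.3 CPM (edgeR quasi-likelihood adjusted p = 0.00298). *Grn* and *Psap*, which encode the lysosomal proteins progranulin and prosaposin, rose 2.02-fold and 1.64-fold (edgeR quasi-likelihood adjusted p = 0.00494 and 0.00545). *Cd14*, the lipopolysaccharide co-receptor of monocytes, held 15 to 27 counts per vehicle mouse and 3 to 10 per AG636 mouse and was not tested. Of 12 non-classical monocyte genes 8 were tested, 3 rose (*Cd9*, *Pou2f2* and *Fcgr4*) and 0 fell, with a median of 0.67. *Fcgr4*, an activating IgG receptor, had 2.60 ± 1.46 and 7.34 ± 1.53 CPM (SD, n = 3) and kept its call in 1 of 6 fits without 1 mouse.

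**Figure D4:**
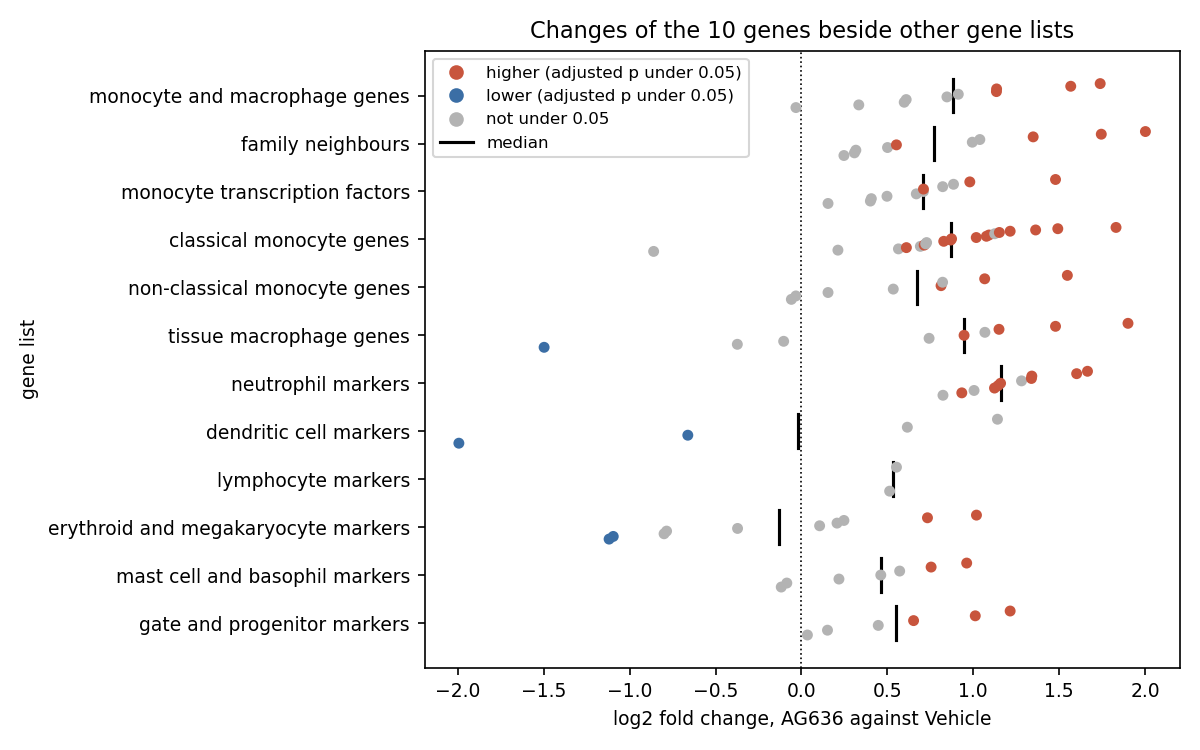
Log2 fold change (AG636 against vehicle) of every tested gene in each list, coloured by the call, with a black line at the median. The 10 genes have a median of 0.88, between the 0.87 of classical monocyte genes and the 1.16 of neutrophil markers, and erythroid and megakaryocyte markers have one of -0.13; family neighbours are the relatives named in the text.

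Markers of other cells moved with the groups too. All 11 neutrophil markers were tested and 8 rose, with a median log2 fold change of 1.16. *Ngp* and *Ltf*, which encode proteins of neutrophil granules, rose 3.18-fold and 2.25-fold (edgeR quasi-likelihood adjusted p = 0.00271 and 0.00732), and *Cxcr2* rose 2.18-fold. The summed level of the neutrophil markers was 1089 to 2462 CPM with vehicle and 3011 to 6064 CPM with AG636. The part of neutrophil transcripts in the increase of *Lyz2* was not tested.

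The gate was set on surface protein, and the RNA shows only the transcripts of these proteins. By flow cytometry, the study saw little effect of 4 days of AG636 on cKit and CD11b of I1DN cells in the marrow. *Kit* had 43.1, 31.8 and 41.0 CPM with vehicle and 46.3, 37.3 and 44.7 CPM with AG636 (edgeR quasi-likelihood adjusted p = 0.550). *Itgam*, the gene of CD11b, rose from 12.1, 18.3 and 27.0 CPM to 60.1, 31.3 and 41.2 CPM (log2 fold change 1.21, edgeR quasi-likelihood adjusted p = 0.0219), although CD11b was selected against in the sort. Its call was kept in 2 of 6 fits without 1 mouse. Of 7 gate and progenitor markers 6 were tested and 3 rose, *Itgam*, the homeobox gene *Meis1* and *Ptprc*, the gene of CD45, while *Cd34* had 131 ± 38.0 and 178 ± 32.4 CPM (SD, n = 3) and did not pass.

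Of 24 tissue macrophage genes, 9 were tested, 4 rose (*C1qb*, *Maf*, *Axl* and *Apoe*) and *Slc40a1*, the iron exporter ferroportin, which red cell precursors also express, fell. Their summed level was 85.5 to 121 CPM with vehicle and 93.5 to 168 CPM with AG636, and *Vsig4*, *Clec4f* and *Cd209b* had 0 counts in all 6 mice. The summed level of the complement genes *C1qa*, *C1qb* and *C1qc* was 13.6, 8.76 and 8.99 CPM with vehicle and 8.92, 39.0 and 26.8 CPM with AG636. AG636 replicate 1, with a C1q level inside the vehicle range, had the highest *Lyz2*, *Cd68* and *Ly6c2* of all mice. AG636 replicate 3, with a C1q level above all vehicle mice, had the highest *Mpeg1*. AG636 replicate 2, with the highest C1q level, had the lowest level of these 4 genes among AG636 mice. Of the monocyte and macrophage lineage genes, AG636 replicate 1 was the highest AG636 mouse for 4, replicate 2 for 1 and replicate 3 for 5. The part of tissue macrophages in the values of these genes was not tested.

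Of 12 lymphocyte markers 2 were tested and 0 passed in edgeR (0 also at an unadjusted p under 0.05, where *Nkg7* had 0.0675 and *Cd79b* 0.123), and *Cd3e* and *Cd79a* held at most 8 counts in a mouse. Among 10 erythroid and megakaryocyte markers, all tested, 2 rose, *Gp9* and *Itga2b*, and 2 fell. *Klf1*, the erythroid master regulator, fell from 151 ± 67.7 to 70.8 ± 15.3 CPM (SD, n = 3, edgeR quasi-likelihood adjusted p = 0.0238). *Hba-a1*, an alpha globin gene, had 531 ± 184 and 411 ± 109 CPM. Of 8 mast cell and basophil markers 7 were tested and 2 rose, *Gata2* and *Cpa3*. Of 10 dendritic cell markers 4 were tested, 0 rose and 2 fell, *Zbtb46* and *Bst2*, and *Siglech* had 4 counts in vehicle replicate 2 and 0 in the other mice. Summed levels with vehicle and with AG636 were 199 to 345 and 272 to 512 CPM for lymphocyte markers, nearly all from *Nkg7*, a granule gene. They were 1888 to 3692 and 2667 to 3320 CPM for erythroid and megakaryocyte markers, 578 to 951 and 876 to 1658 CPM for mast cell and basophil markers, and 76.7 to 130 and 54.6 to 248 CPM for dendritic cell markers. The part of these cell types in the values of the 10 genes was not tested.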

How the data were processed

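RNA was sequenced from sorted I1DN cells of 3 vehicle and 3 AG636 mice, and groups and replicate numbers were taken from the sample titles. The authors deposited raw counts of reads per gene for 3′-end libraries. Per the submitters' processing notes, reads were trimmed with cutadapt 1.9.1, mapped to mm10 (GRCm38) with HISAT2 2.0.4 and counted with featureCounts of Subread 1.5.0-p3. The study's methods name later versions of some tools. The annotation release and strand setting were not given in the sources used here. Symbols from GENCODE M21 were matched to 54723 of 54838 identifiers, of which 98.7% had the same start and end there. The gene length column is a length in bases of the deposited table and was not used.

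The tests were run with edgeR 4.0.16 under R 4.3.3 (filterByExpr, at least 10 counts and 15 in total, TMM scaling, quasi-likelihood test, Benjamini-Hochberg adjusted p under 0.05 over all 11092 genes tested). The standard error is the log2 fold change divided by the square root of F, and CPM use the scaled library sizes. The test was tried on simulated data with known changes. DESeq2 1.42.0, limma 3.58.1 (voom), other scalings and filters, a replicate block and leaving out each mouse were the alternatives. Total counts were 4634963 to 7906589, and 3 counts are 0.392 to 0.637 CPM after TMM scaling of these totals. These floors cover counting error only. A chi-square per degree of freedom of 6.76 to 16.0 between mice of a group was well above sampling noise, so no library was a copy of another. The libraries of a group are different mice. The 10 genes and all lists were chosen with earlier results of these data known. Named were the 10 genes, the relatives, ligands and transcription factors with reads, and of other lists the called genes with the 3 lowest p in each direction and set defining markers. *Ifi30* was named because it went against its list. Promoter windows came from RefSeq. A few listed genes are not reported here by name.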

Additional observations from a re-analysis of the deposited data

How the results depend on the processing

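Each result was recomputed under 13 alternatives. Of the single-gene values, 679 kept their direction and their side of the threshold, 75 lost the call, 23 gained it and 10 changed sign; the causes were not tested. At an adjusted p under 0.01, edgeR called 231 genes higher and 325 lower over all genes, 1 of the 10 genes higher, and 10 higher and 0 lower in the other lists, since fewer calls pass a stricter threshold. With no filter, 11 genes of the other lists were lower and their median log2 fold change was 0.58. Leaving out 1 mouse at a time gave 399 to 1074 genes higher and 452 to 1298 lower over all genes, with both lowest counts without AG636 replicate 3. The same fits gave 2 to 5 of the 10 genes higher, with 2 without AG636 replicate 3 or vehicle replicate 2, and 19 to 43 higher and 0 to 7 lower in the other lists, whose median ran from 0.60 to 0.87. Values near 0 changed sign: *Cx3cr1* was 0.056 with library size alone and -0.32 to 0.10 without 1 mouse. The ranges without 1 mouse were -0.11 to 0.59 for *Ccr2*, -0.029 to 0.27 for *Cebpb*, -0.070 to 0.67 for *Mcpt8* and -0.029 to 0.44 for *Pf4*.

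Replicate numbers did not pair the mice: correlations of same-numbered deviations were -0.0573, -0.178 and 0.224, and 1 of 6 samples correlated best with its own number. With a replicate block 914 genes were higher and 1046 lower, and 3 of the 10 genes were higher (*Lyz2*, *Cd68* and *Mpeg1*). *Ccr2* rests on 10 to 24 counts per mouse and *Adgre1* on 14 to 56.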

Other observations

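MHC class II genes, picked after their values were seen, set 1 mouse apart. *H2-Ab1*, a class II beta chain, had 17.7, 30.1 and 17.97 CPM in vehicle mice and 11.0 and 17.9 CPM in AG636 replicates 1 and 3, and 117.5 CPM in AG636 replicate 2. *Cd74*, the invariant chain that accompanies class II molecules, had 22.1 to 37.4 CPM with vehicle and 12.3, 96.1 and 21.7 CPM with AG636. Neither gene passed the test (edgeR quasi-likelihood adjusted p = 0.267 and 0.483). AG636 replicate 2 was also the mouse with the lowest *Lyz2* of its group.

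*Zbtb46*, a transcription factor of classical dendritic cells and of some erythroid progenitors, fell from 34.8, 22.9 and 10.4 CPM with vehicle to 6.80, 7.42 and 3.02 CPM with AG636 (edgeR quasi-likelihood adjusted p = 0.0142). *Flt3*, a receptor of dendritic cell progenitors, was too low to be tested, with 0.523 to 0.836 CPM with vehicle and 1.70 to 4.33 CPM with AG636.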
